A study of Mus musculus with 4 samples.

Results

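The genes described here are 47 cell cycle genes, 22 of DNA replication and the G1/S transition (called replication genes below) and 25 of mitosis (mitotic genes), measured in mouse liver with and without NIPP1. They were chosen by name from the gene name column of the array files, over all spots that are not controls, a rule that uses no measured value, although earlier results of these data were known when the list was drawn up. The arrays carried 67 probes for them. A gene was tested where a probe was well above background, by the scanner software's mark, in at least 3 mice of 1 genotype, which 33 of the 47 genes were, 20 replication genes and 13 mitotic genes. In all, 16265 genes were tested. Ccnd1 and E2f1, though placed among the replication genes, act in G1 and at entry into S phase rather than in DNA synthesis itself.

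Total liver RNA came from 8 untreated males aged 2 months, from a mixed strain. Of these, 4 carried a conditional liver knockout of NIPP1 and 4 were controls, and each of 4 Agilent arrays carried RNA of 1 knockout and 1 control mouse in different dyes. The knockout sample was the Cy3 channel of replicates 1 and 2 and the Cy5 channel of replicates 3 and 4, and every channel was another mouse. The sources used here do not give the Cre line, the deleted exons or the genotype of the control mice beyond that word. NIPP1, the product of Ppp1r8, binds protein phosphatase 1 in the nucleus, steers its activity, and also takes part in splicing and chromatin regulation.

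Most hepatocytes of an adult liver rest outside the cell cycle and enter it again after injury or tissue loss. In G1, cyclin D1 and its kinases inactivate the retinoblastoma protein, which frees E2F factors to switch on genes for origin licensing, nucleotide supply and DNA synthesis. Genes of G2 and mitosis come later and are held down in resting cells by the DREAM complex, which acts through CHR elements (cell cycle genes homology region). In dividing cells FOXM1 and B-MYB activate these genes with the MuvB core that DREAM shares, often together with the CCAAT-binding factor NF-Y.

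The 5 promoters printed here, of genes described below, show words that were more frequent in the promoters of one class than of the other. RefSeq promoters (build GRCm38.p6, 250 bases before to 50 after the start) were found for 38 of the 47 genes, 18 replication genes and 20 mitotic genes. The E2F words searched were TTTCCCGC, TTTCGCGC, TTTGCCGC and TTTGGCGC, the CHR word was TTTGAA, and the NF-Y word was CCAAT, each on both strands. An E2F word was in 7 of 18 replication promoters (38.9%) and 1 of 20 mitotic promoters (5%), against 2.6% of all 27025 genes with a promoter in the table. A CHR word was in 14 of 20 mitotic promoters (70%) and 2 of 18 replication promoters (11.1%), against 20.2% of all. Every one of these 14 mitotic promoters also held CCAAT, and 7.97% of all genes had both words. The 250 bases before each start are printed 5′ to 3′ along the strand of the gene, with all matches in capitals. In Mcm5 and Mcm6 the run of capitals ending in AAA is a pair of E2F words on opposite strands that overlap by 4 bases, and in Ube2c a CCAAT on each strand overlap.
Mcm5, chr8:75109259-75109508, plus strand: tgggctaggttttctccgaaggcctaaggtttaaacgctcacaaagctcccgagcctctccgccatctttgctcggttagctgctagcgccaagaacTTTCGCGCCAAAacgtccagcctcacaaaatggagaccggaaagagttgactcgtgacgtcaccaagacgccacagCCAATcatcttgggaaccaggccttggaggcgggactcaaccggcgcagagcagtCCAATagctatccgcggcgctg
Mcm6, chr1:128359706-128359955, minus strand: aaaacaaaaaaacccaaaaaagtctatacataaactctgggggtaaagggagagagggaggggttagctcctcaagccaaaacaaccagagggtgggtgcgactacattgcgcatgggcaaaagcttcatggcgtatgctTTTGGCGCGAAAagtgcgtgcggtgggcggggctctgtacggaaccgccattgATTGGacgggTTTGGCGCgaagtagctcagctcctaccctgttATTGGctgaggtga
Cdc20, chr4:118437344-118437593, minus strand: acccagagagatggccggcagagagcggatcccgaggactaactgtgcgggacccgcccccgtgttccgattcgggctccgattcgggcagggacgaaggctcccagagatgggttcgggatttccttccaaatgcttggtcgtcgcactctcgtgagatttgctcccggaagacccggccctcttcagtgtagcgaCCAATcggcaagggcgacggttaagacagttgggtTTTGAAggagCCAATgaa
Mki67, chr7:135716380-135716629, minus strand: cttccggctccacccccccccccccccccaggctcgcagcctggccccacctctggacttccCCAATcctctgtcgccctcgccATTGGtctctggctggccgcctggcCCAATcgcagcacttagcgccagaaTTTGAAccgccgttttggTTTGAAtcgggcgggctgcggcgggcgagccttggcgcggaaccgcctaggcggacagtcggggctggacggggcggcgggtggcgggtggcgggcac
Ube2c, chr2:164769679-164769928, plus strand: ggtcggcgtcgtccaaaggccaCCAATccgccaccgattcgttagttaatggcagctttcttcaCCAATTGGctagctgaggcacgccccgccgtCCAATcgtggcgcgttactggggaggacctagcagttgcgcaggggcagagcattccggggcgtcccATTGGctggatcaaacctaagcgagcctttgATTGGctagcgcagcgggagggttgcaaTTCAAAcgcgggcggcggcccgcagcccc
The 2 replication promoters carry E2F words and no CHR word, and the 3 mitotic promoters carry CHR words and no E2F word. A match is a description of these letters and not evidence of binding.

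Some facts of the series bear on all values below. Median signals over background were 60.6 to 62.4 over 23 in Cy3 and 125 to 126 over 64 to 68 in Cy5, and 52.7% to 56.3% of spots passed as well above it. All 8 hepatocyte markers listed, Alb among them, were tested. Across genes, which are not independent replicates, the log2 ratios of replicates 3 and 4 correlated at r = 0.52, and those of replicates 1 and 4 at -0.27. The number of arrays limits the precision. Values are log2 knockout over control unless called levels, and levels are normalized log2 intensities of 1 probe, which cannot be set against those of another probe. Errors of the limma fit do not hold the difference between the 2 dye orientations. Coordinates of probes refer to mm9.

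The targeted gene Ppp1r8 gave less signal in the knockout on every array. Its brighter probe, at chromosome 4, 132383193 to 132383252, had levels of 6.88, 6.89, 6.74 and 6.89 in the knockout mice of replicates 1 to 4 and 7.49, 7.62, 7.48 and 7.52 in the control mice. The ranges of the genotypes lay apart, with a log2 ratio of -0.68 ± 0.05 (SE of the limma fit; adjusted p 0.0588). A second probe at 132383814 to 132383873 had -0.66, -0.59, -0.59 and -0.75 on replicates 1 to 4. In the scanner software's processed signals, which the deposited value table holds as ratios, the first probe had -1.18, -1.46, -1.39 and -1.28. The sources used here do not say whether either probe lies in the deleted exons, and a probe outside them would not check the labels.

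No cell cycle gene was called. None of the 33 tested passed an adjusted p of 0.05 in limma, where 0 genes of the whole array passed in either direction (0% of 16265; smallest adjusted p 0.0537). An adjusted p under 0.1 was likewise reached by none of the 33, though 3.52% of all genes reached it on the higher side and 2.05% on the lower. At an unadjusted p under 0.05 in the same fit there were 3 genes, Ccnd1, E2f1 and Rrm1, all replication genes with higher values in the knockout, against 12.6% of all tested genes on that side, 10.1% on the other and 22.7% on either, so cell cycle genes passed this threshold no more often than the array as a whole. Levels of all 4 knockout mice lay above those of all 4 control mice for 1 of the 33 genes, E2f1, against a background of 7.08%. A lower level in all 4 knockout mice, seen for 5.02% of all genes, was found for none of the 33. The median log2 ratio was 0.05 over the 20 replication genes, with 13 above 0 and 7 below, and 0.03 over the 13 mitotic genes, with 9 above 0 and 4 below. Over all tested genes 49.6% were above 0. In RNA of whole liver, fewer cells of a type and less RNA per cell cannot be told apart.

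**Figure D1:**
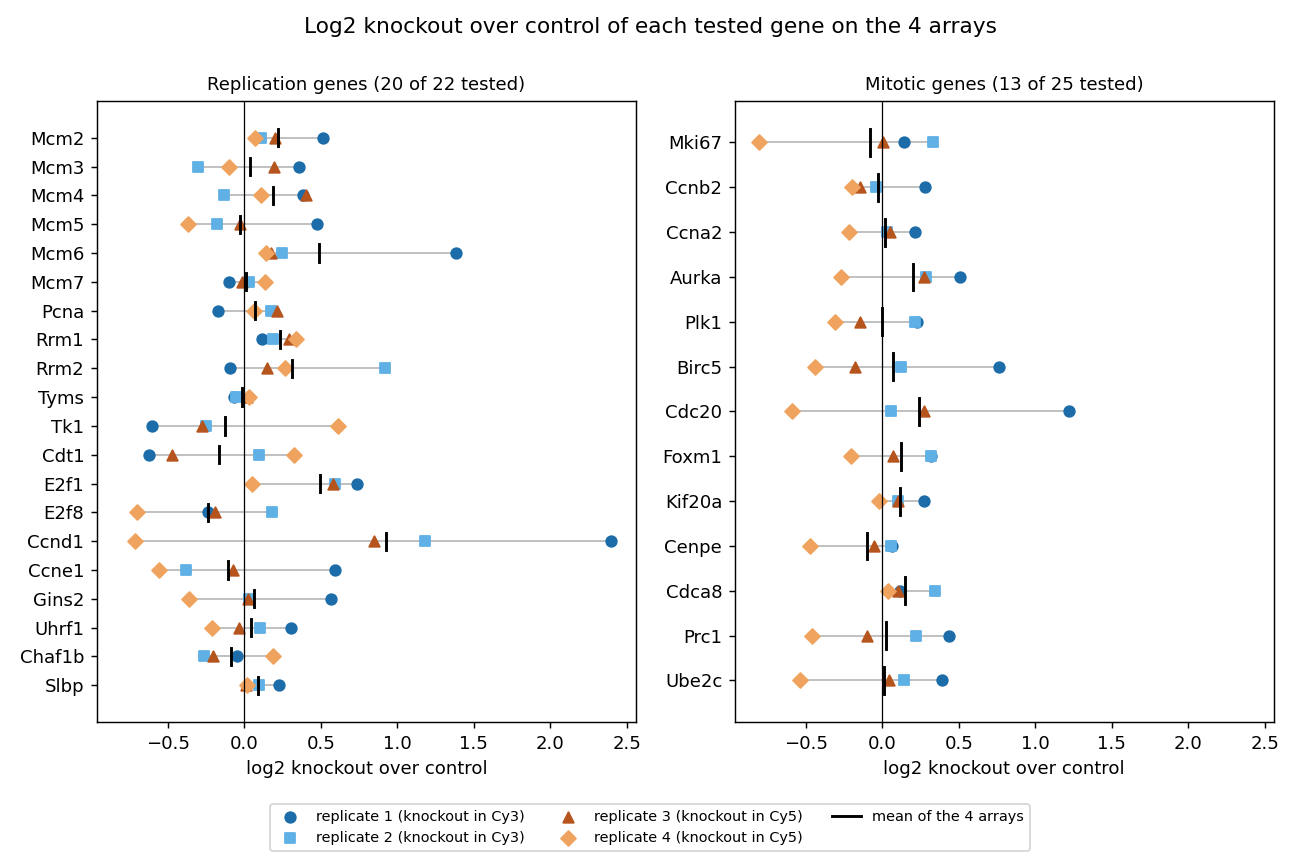
Log2 knockout over control (x axis) of each tested replication gene (left) and mitotic gene (right), with a point for each of the 4 arrays, joined by a grey line, and a black bar at their mean. Ccnd1 runs from -0.71 on replicate 4 to 2.40 on replicate 1, Rrm1 lies above 0 on all 4 arrays, and replicate 4 is the lowest point of each of the 13 mitotic genes.

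Ccnd1, which encodes cyclin D1, the cyclin that drives resting hepatocytes out of G1, had the largest mean of the tested replication and mitotic genes and the widest spread. Its probe at chromosome 7, 152116202 to 152116261, had levels of 11.12, 9.75, 9.32 and 8.93 in the knockout mice and 8.72, 8.57, 8.48 and 9.64 in the control mice. The knockout mouse was higher on replicates 1 to 3, and on replicate 4 the control mouse was higher, so the genotypes overlapped. The 4 ratios, 2.40, 1.18, 0.84 and -0.71, had a mean of 0.93 ± 1.28 (SD, n = 4), a 1.90-fold difference. Both ratios with the knockout in Cy3 were above both with it in Cy5. The limma fit, whose dye term takes up that difference, gave an SE of 0.34, an unadjusted p of 0.04997 and an adjusted p of 0.22. With no dye term the limma adjusted p was 0.444. The SD of the 4 ratios was higher than that of 99.2% of tested genes. Leaving out single replicates gave 0.54 without replicate 3 and 1.32 without replicate 4.

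E2f1, an activator of S phase genes, was the tested gene of either class in which the genotypes did not overlap. At chromosome 2, 154385798 to 154385857, its levels were 8.58, 8.25, 8.44 and 8.16 in the knockout mice and 7.84, 7.65, 7.86 and 8.11 in the control mice. The difference was 0.58 to 0.74 on replicates 1 to 3 and 0.05 on replicate 4, where the control mouse had the highest control level. Its mean was 0.49 ± 0.30 (SD, n = 4), a 1.41-fold difference (limma adjusted p 0.109), and a fit on single-channel intensities in place of ratios gave an adjusted p of 0.0124, where 16.9% of all genes passed 0.05 against 1 of the 33. E2f8, an E2F repressor that acts in the endocycle of hepatocytes, had -0.24, 0.18, -0.19 and -0.70 on the 4 arrays (limma adjusted p 0.329). Of the cyclin E genes, whose kinase partner CDK2 starts S phase, Ccne1 had 0.59, -0.38, -0.07 and -0.55, with both signs among the arrays, and Ccne2 was well above background in none of the 8 mice.

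The subunits of the MCM helicase, which is loaded on origins in G1 and unwinds DNA in S phase, differed among themselves. Mcm2 had levels of 7.37, 7.04, 7.27 and 7.14 in the knockout mice and 6.86, 6.93, 7.07 and 7.06 in the control mice. It was above 0 on all 4 arrays, with a log2 ratio of 0.22 ± 0.09 (SE of the limma fit; adjusted p 0.233), and the genotypes overlapped slightly. Its value was 0.12 without replicate 1 and 0.54 with the processed signals. Mcm6 had levels of 9.11, 8.19, 8.16 and 9.53 in the knockout mice and 7.73, 7.94, 7.99 and 9.39 in the control mice. Both mice of replicate 4 were high for Mcm6, and the knockout mouse of replicate 1 stood 1.39 above its control while the other ratios were 0.15 to 0.25. The fit gave 0.49 ± 0.20 (limma adjusted p 0.25), and 0.21 without replicate 1. Mcm3 (0.36, -0.30, 0.19 and -0.10), Mcm4 (0.38, -0.13, 0.40 and 0.11) and Mcm5 (0.47, -0.18, -0.02 and -0.37) had both signs. A second tested probe of Mcm3 had -0.03, -0.17, 0.13 and 0.27, the other sign on replicates 1 and 4. Mcm7 stayed between -0.10 and 0.13. Among the factors that load or start the helicase, Cdt1 ran from -0.62 to 0.33, Gins2, of the GINS complex, from -0.36 to 0.57, and Cdc6 was above background in no mouse.

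Ribonucleotide reductase makes the deoxyribonucleotides for DNA synthesis and Rrm1 encodes its large subunit. At chromosome 7, 109617223 to 109617283, its levels were 8.68, 8.70, 8.38 and 8.84 in the knockout mice and 8.57, 8.51, 8.09 and 8.50 in the control mice. The knockout mouse was higher on every array, by 0.12, 0.19, 0.29 and 0.34, though the genotypes overlapped across arrays. The mean was 0.23 ± 0.10 (SD, n = 4), a 1.18-fold difference (limma unadjusted p 0.00663, adjusted p 0.104). Rrm2, the subunit made in S phase, had levels of 8.49, 8.95, 8.70 and 8.75 in the knockout mice and 8.58, 8.03, 8.55 and 8.48 in the control mice. Its 0.92 on replicate 2 stood far above -0.09, 0.15 and 0.26 on the others, and the value without replicate 2 was 0.06. Tk1, the thymidine kinase of S phase, had -0.60, -0.25, -0.28 and 0.61, and its second probe -0.49, -0.13, -0.50 and 0.47. Tyms, thymidylate synthase, was detected in 3 mice of each genotype and stayed between -0.07 and 0.03. In the processed signals Tyms had -0.56, -0.63, -0.05 and 0.57, so its narrow range rests on the background correction used.

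At the fork itself the mean ratios were small. Pcna, the sliding clamp of DNA polymerases, had levels of 10.70, 10.93, 11.00 and 11.01 in the knockout mice and 10.87, 10.75, 10.79 and 10.95 in the control mice, with a log2 ratio of 0.07 ± 0.08 (SE of the limma fit; adjusted p 0.641). Chaf1b, a subunit of the histone chaperone behind the fork, lay between -0.26 and 0.19, and Uhrf1, which carries DNA methylation over replication, between -0.21 and 0.31. The processed signals gave Uhrf1 a wider range, with 1.23, 0.32, -0.01 and -0.57. A second tested probe of Chaf1b lay between -0.39 and 0.32. Slbp, which binds histone mRNA, was above 0 on all 4 arrays at 0.23, 0.09, 0.01 and 0.02. With Mcm2, Mcm6, Rrm1 and E2f1 it made 5 of 20 replication genes above 0 on every array, against 13.3% of all tested genes. Among the mitotic genes Cdca8 was the 1 of 13, by its brighter probe only. None of the 33 was below 0 on every array, against 10.9%. In the processed signals 4 of 20 replication genes and 0 of 13 mitotic genes were above 0 on every array, against 12.6% of all tested genes. Slbp there had 0.30, 0.16, -0.05 and -0.02.

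**Figure D2:**
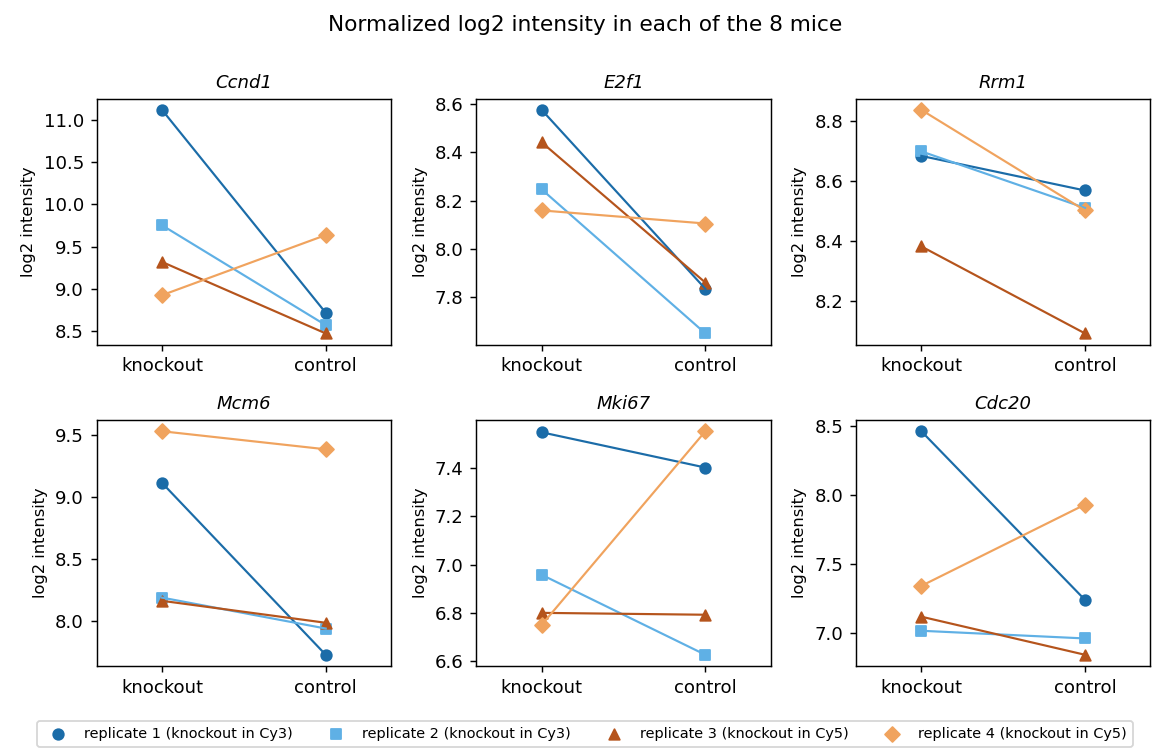
Normalized log2 intensity (y axis) of 6 genes in the 4 knockout mice (left) and the 4 control mice (right), with a line joining the mice of 1 array; each panel has its own scale, which does not start at 0. The knockout levels of E2f1 all lie above its control levels, and on replicate 4 the control mouse is the higher for Ccnd1, Mki67 and Cdc20.

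Many mitotic genes were near or under the detection limit in these livers. Of the 25, 8 were well above background in all 8 mice, 10 in some and 7 in none, against 18, 2 and 2 of the 22 replication genes. Of all 39429 probes that are not controls, counted by probe and not by gene, 48.6% were above background in all 8 mice and 39.4% in none. The 7 of 25 mitotic genes seen in none were not a larger share than that 39.4%. Each gene was counted by its probe seen in most mice, so the shares are not fully alike. The 7 mitotic genes seen in no mouse were Top2a, the topoisomerase of mitotic chromosomes, the checkpoint kinases Bub1, Bub1b and Ttk, Aurkb of the chromosomal passenger complex, the spindle motor Kif11 and the kinase Melk. Another 5 were seen in too few mice to test. Of these Ccnb1, the main mitotic cyclin, was above background in 1 knockout and 2 control mice, and its partner kinase Cdk1 in 2 and 1. Nusap1 and Tpx2, which organise spindle microtubules, were seen in 2 knockout and 1 control mice and in 1 knockout and 0 control mice, and Cenpf, of the kinetochore, in 1 mouse of each genotype. Counted over genes and mice, mitotic genes were detected 56 of 100 times in knockout mice and 50 of 100 times in control mice. More knockout than control mice had signal for 7 genes, fewer for 1, and as many for 17, with 17, 12, 13 and 14 of the 25 detected in the knockout mice of replicates 1 to 4 and 14, 11, 11 and 14 in the control mice. Where the genotypes differed, they did so by 1 mouse. These counts come from the same 8 livers and have no count over all genes beside them, so no difference between the genotypes is read from them. Ccna2 and Cenpe entered the test only through the knockout mice, with 3 of them above background and 2 control mice.

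**Figure D3:**
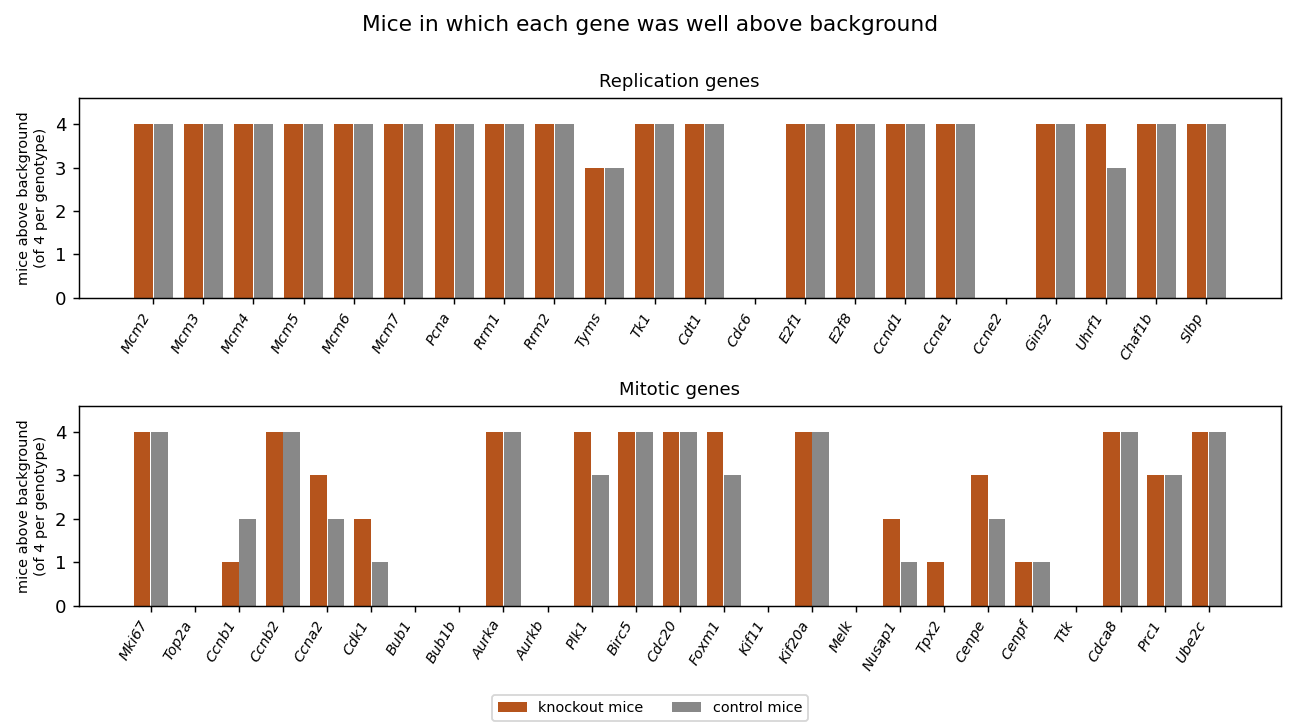
Number of mice (y axis, of 4 per genotype) in which each replication gene (top) and each mitotic gene (bottom) was well above background, knockout bars left of control bars, with no bar for 0 mice. Of the mitotic genes 8 reach 4 mice in both genotypes and 7 have no bar, while 18 of the replication genes reach 4 in both.

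Mki67, a nuclear protein of cycling cells used to count them, had levels of 7.55, 6.96, 6.80 and 6.75 in the knockout mice and 7.40, 6.63, 6.79 and 7.55 in the control mice. The highest control mouse, on replicate 4, was level with the highest knockout mouse, on replicate 1, and the ranges overlapped throughout. The ratios were 0.15, 0.33, 0.01 and -0.80, with a mean of -0.08 ± 0.50 (SD, n = 4; limma adjusted p 0.787), and a second probe gave 0.13, 0.23, -0.07 and -0.51. Foxm1, the transcription factor of the G2/M programme, had levels of 6.75, 6.72, 6.69 and 6.39 in the knockout mice and 6.43, 6.40, 6.62 and 6.59 in the control mice. Its ratios were 0.32, 0.32, 0.07 and -0.20 (0.13 ± 0.07, SE of the limma fit; adjusted p 0.331), and the processed signals gave 0.33. Leaving out replicate 3 gave 0.06 and leaving out replicate 4 gave 0.20. Cyclin A2, from Ccna2, acts in S phase and G2 and had 0.21, 0.03, 0.05 and -0.22, from levels of 6.68, 6.39, 6.40 and 6.50 in the knockout mice and 6.47, 6.35, 6.34 and 6.72 in the control mice (limma adjusted p 0.889). Cyclin B2, from Ccnb2, had 0.28, -0.04, -0.14 and -0.20.

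Cdc20, which activates the anaphase-promoting complex, varied most among the mitotic genes. Its levels were 8.46, 7.01, 7.12 and 7.34 in the knockout mice and 7.24, 6.96, 6.84 and 7.93 in the control mice. The knockout mouse of replicate 1 and the control mouse of replicate 4 stood above the others of their genotype. The ratios were 1.22, 0.06, 0.28 and -0.59, with a mean of 0.24 ± 0.75 (SD, n = 4; limma adjusted p 0.619), and their SD was above that of 97.2% of tested genes. Ube2c, the ubiquitin-conjugating enzyme of the same complex, had 0.39, 0.14, 0.05 and -0.53. A second tested probe of Ube2c had 0.46, 0.10, 0.35 and -0.09, a much smaller drop on replicate 4. The kinases Aurka, of the centrosome, and Plk1, of mitotic entry, had 0.51, 0.29, 0.28 and -0.27, and 0.23, 0.21, -0.14 and -0.31. Birc5, or survivin, of the chromosomal passenger complex, had 0.76, 0.12, -0.17 and -0.44, whereas Cdca8, or borealin, of the same complex had 0.12, 0.35, 0.11 and 0.04 (0.15 ± 0.06, SE of the limma fit; adjusted p 0.243). A second tested probe of Cdca8 had both signs, with 0.10, 0.14, -0.04 and -0.10. The kinesins Kif20a, of cytokinesis, and Cenpe, of chromosome alignment, had 0.27, 0.11, 0.10 and -0.02, and 0.07, 0.06, -0.05 and -0.47, and Prc1, which bundles midzone microtubules, had 0.44, 0.22, -0.10 and -0.46.

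The mitotic ratios kept a common order over the arrays. Replicate 4 was the lowest of the 4 arrays for all 13 tested mitotic genes, against 26.2% of all tested genes, and replicate 1 the highest for 11, against 26.2%. On replicate 1 all 13 were above 0, against 47.8% of all genes, and on replicate 4 only Cdca8 was, against 54.6%. The second probe of Cdca8 was below 0 on replicate 4. On replicates 2 and 3, 12 and 8 were above 0, and the list's medians were 0.28, 0.14, 0.05 and -0.31. The median of all genes stayed between -0.01 and 0.02 on the 4 arrays. With no filter on dim probes, replicate 4 was the lowest for 18 of the 25 mitotic genes and the medians were 0.21, 0.07, -0.004 and -0.19. In the processed signals they were 0.71, 0.55, 0.02 and -0.90. There replicate 4 was again the lowest for all 13, but replicate 1 was the highest for 8 only, against 4777 and 4385 of all 16265 tested genes. The 13 genes share the same 8 livers and are not replicates of each other.

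The replication genes followed that order in part. Their medians were 0.27, 0.10, 0.02 and 0.06 on replicates 1 to 4. Replicate 1 was the highest for 10 of 20 and replicate 4 the lowest for 9 of 20 (45%), each against 26.2% of all tested genes. The difference in these counts between the classes was not tested. Replication minus mitotic medians differed by -0.01, -0.04 and -0.02 on replicates 1 to 3 and by 0.37 on replicate 4. The difference of the medians of gene means was 0.03. In the processed signals it was -0.01, with -0.35, -0.39, 0.02 and 0.96 on the 4 arrays. In the normexp and loess ratios it was -0.04 without replicate 4, 0.08 without replicate 3, and -0.02 with only genes above background in all 8 mice, so its sign rests on the arrays and filter used. Both highest on replicate 1 and lowest on replicate 4 were 11 of 13 mitotic genes and 8 of 20 replication genes (Mcm2, Mcm5, Mcm6, E2f1, Ccnd1, Ccne1, Gins2 and Uhrf1), against 14.6% of all tested genes. Tk1 was lowest on replicate 1 and highest on replicate 4.

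**Figure D4:**
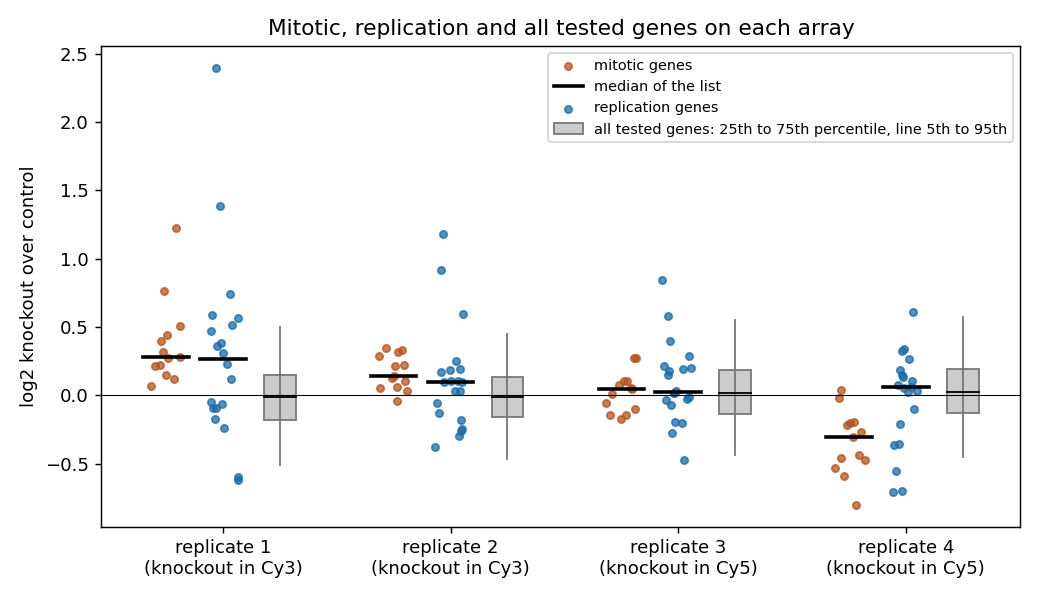
Log2 knockout over control (y axis) on each of the 4 arrays for the tested mitotic genes (orange), the tested replication genes (blue) and all 16265 tested genes (grey box, 25th to 75th percentile, line 5th to 95th), with black bars at medians. The mitotic median is 0.28 on replicate 1 and -0.31 on replicate 4, while the replication median on replicate 4 is 0.06.

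Levels were also set side by side between mice that carried the same dye, 1 mouse against 1 on different arrays, so mouse and array cannot be told apart. Over the 13 mitotic genes the knockout mouse of replicate 1 was higher than that of replicate 2 by a median of 0.43, and for all 13 genes, against 48.2% of all tested genes. The control mouse of replicate 1 was also higher than that of replicate 2, by a median of 0.25 and for all 13 genes, so both channels of replicate 1 had more mitotic signal than those of replicate 2. Of all tested genes, 52% were lower in that control mouse of replicate 1. Between replicates 4 and 3 the knockout mice differed by a median of -0.04, and the control mice by 0.37, with the control mouse of replicate 4 higher for 11 of 13 genes (84.6%, against 50.5% of all tested genes). The same medians over the 20 replication genes were 0.12 and 0.03 for the knockout mice and 0.01 and 0.19 for the control mice. The negative mitotic ratios of replicate 4 thus stood beside a control mouse with higher mitotic levels than its same-dye partner, while the knockout mouse differed little from its own.

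Markers of other cells that divide or stand in the liver are given beside these values, as their part was not tested. Of 16 immune markers 13 were tested (Cd3g was detected in no mouse and its partner Cd3e in all 8), with a log2 intensity, summed over the list, of 12.8 to 13.4 in knockout mice and 12.9 to 13.3 in control mice. Of 13 erythroid markers 10 were tested, with 16.7 to 17.4 in knockout mice and 17.1 to 17.3 in control mice. Of the erythroid transcription factor genes, Gata1 was detected in no mouse and Klf1 in all 8. Of the 10 tested erythroid markers, 3 had a mean above 0 and 7 below. Alas2, of haem synthesis in red cells, had 0.36, -2.08, -2.28 and -2.25, and Car1, a carbonic anhydrase, -1.20, -0.51, -1.47 and -1.45. Others of the list differed from these, as Car2 had 0.27, 0.04, 0.57 and 0.50 and Hba-a1 had -0.18, 0.21, -0.73 and 0.17. Myeloid progenitor markers, 3 of 7 tested, summed to 10.1 to 10.3 in knockout mice and 10.2 to 10.3 in control mice. Biliary markers, 8 of 8 tested, summed to 11.0 to 11.7 in knockout mice and 10.3 to 10.7 in control mice, and their array medians were 0.17, 0.33, 0.33 and 0.46. The biliary markers were uneven: by mean, 7 were above 0, from 0.09 for Epcam to 2.18 for Dmbt1, and Sox9 had -0.21. Markers of pancreatic acinar cells had medians of 3.77, -2.69, -0.19 and -1.24, positive on replicate 1 as were the mitotic genes and negative on replicate 2, where they were not. Hepatocyte markers had medians of -0.24, -0.19, 0.04 and 0.43, as medians the reverse of the mitotic order. The markers themselves were uneven. Alb and Cyp2e1 rose from replicate 1 to replicate 4, and Ttr, Apoa1 and Serpina1c were lowest on replicate 2. Hnf4a went the other way, with 0.05, 0.27, -0.35 and -0.33. Tat had 0.08, -0.15, -0.34 and 0.46, and Cps1 -0.20, -0.02, -0.50 and 0.13, which followed neither order. Both orders of medians also follow the dye orientation. Hepatocyte medians were lower, and mitotic medians higher, on the arrays with the knockout in Cy3. Endothelial markers had 0.00, -0.12, -0.16 and -0.12, and stellate cell markers 0.02, -0.43, 0.01 and 0.21.

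Other genes of the same pathways were counted from lists that hold none of the 47. Of 33 tested genes among 39 further replication genes, 6 were higher (18.2%) and 1 lower at an unadjusted p under 0.05, against 12.6% and 10.1% of all tested genes, with a list median of 0.05 over gene means. Rpa1, of the protein that coats single-stranded DNA, had 0.29 ± 0.05 (SE of the limma fit; adjusted p 0.0877), and Gins4 and Gins1, of the GINS complex, had 0.27 and 0.24. Rpa2 had 0.16, 0.09, 0.36 and 0.14 on replicates 1 to 4. Mcm10, the 1 gene counted as lower, had 0.54, 0.75, -1.40 and -1.43 on the 4 arrays, so its sign followed the dye orientation.

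Among 26 tested of 39 further mitotic genes, 6 were higher and 0 lower at that threshold, 23.1% on the higher side against 12.6% of all genes, whereas none of the 13 mitotic genes above reached it. Pttg1, securin, which holds back sister chromatid separation, had 0.55 ± 0.06 (SE of the limma fit; adjusted p 0.0588), with levels of 9.84, 9.62, 9.96 and 9.76 in the knockout mice and 9.49, 9.07, 9.29 and 9.13 in the control mice, which did not overlap. Spc24, of the NDC80 complex at kinetochores, had 0.61, 0.49, 0.37 and 0.28, Mad2l1, of the spindle checkpoint, 0.51, 0.36, 0.34 and 0.22, and the kinesin Kif22 0.43, 0.19, 0.69 and 0.54. These 4 were named because they had 1 sign on every array. Over the whole of that list 14 of 26 genes were above 0 on replicate 4, and replicate 4 was the lowest for 11 of 26, against 54.6% and 26.2% of all tested genes.

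A further list of cell cycle regulators, among them inhibitors, E2F and MuvB genes, cyclins and kinases, had values on both sides. Of its 35 tested genes 6 were higher and 3 lower at an unadjusted p under 0.05 in limma, against 12.6% and 10.1% of all tested genes. Cdkn2c, the p18 inhibitor of CDK4 and CDK6, had levels of 7.75, 7.76, 7.75 and 7.84 in the knockout mice and 7.29, 7.16, 7.16 and 6.92 in the control mice. The genotypes lay apart, and the log2 ratio was 0.64 ± 0.08 (SE of the limma fit; adjusted p 0.0634). Ccng1, a cyclin induced by p53, had 0.47, 0.51, 0.51 and 0.52 (limma adjusted p 0.0588), and Wee1, the kinase that restrains CDK1, had 0.42 ± 0.07 (limma adjusted p 0.0782). Mnat1, also of this list, had 0.14, 0.03, 0.24 and 0.21 (limma adjusted p 0.178). Cdkn1a, the p21 inhibitor, had 1.38, 0.71, -0.09 and 0.80 (limma adjusted p 0.153). Below 0 on all 4 arrays were Rb1, the retinoblastoma gene, at -0.28, the repressor E2f6 at -0.23 and the G1 kinase gene Cdk4 at -0.19, with limma adjusted p-values of 0.116, 0.117 and 0.134.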

How the data were processed

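The deposited scanner files hold, per the file headers (Agilent Feature Extraction 10.7.3.1), each spot's mean intensity and median background intensity in Cy3 and Cy5, flags, and processed signals that the software had background-subtracted and dye-normalized. The deposited value table holds log2 ratios: all 43020 values per array lay within 0.0001 of log2 knockout over control from the processed signals, which settles its scale and direction and shows no added centring (medians -0.05, 0.14, -0.18 and -0.18). The deposited log10 ratios of processed Cy5 over Cy3, per the file headers, were not used. The annotation is on mm9, per the submitters' processing notes.

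Intensities were background-corrected with normexp (offset 50). The offset, added in both channels, draws ratios of dim probes towards 0. Fitted on all spots, the normexp background mean on replicate 1 was -273 in Cy3 and -185 in Cy5. Spots with a non-uniform background mark were therefore left out of the parameter fit, which gave 4.07 and -12.2. Loess followed within arrays, with control spots at weight 0. Spots marked as outliers (194 to 230 per array) were dropped and spots of a probe averaged. The brightest tested probe stood for a gene. Levels are single-channel values after Aquantile scaling.

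The model in limma 3.58.1 (R 4.3.3) had an intercept for the dyes and a knockout term whose sign follows the dye, over 4 arrays with 2 residual degrees of freedom. Two-sided p-values were adjusted over 16265 genes by the Benjamini-Hochberg method, with a threshold of 0.05. The scripts were tested on simulated data. Version 1.17.8 of data.table read the files and matplotlib 3.10.9 drew the plots. The design text says that no replicates were performed: each mouse was measured once, and replicates here are separate mice, numbered in accession order.

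The 47 genes, the pathway and marker lists and the naming rule were chosen with earlier results of these data known. The rule names Ppp1r8, a fixed set of 14 cell cycle genes, those with an unadjusted p under 0.05 and 1 sign on all 4 arrays, those detected in all 8 mice and every untested gene. Of each other pathway list it names up to 4 genes per direction, by size, that have 1 sign on all 4 arrays and an unadjusted p under 0.05. Other genes named, among them genes detected in some mice only, Mcm10, Cdkn1a and the markers, were chosen after their values were seen.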

Additional observations from a re-analysis of the deposited data

Results flagged for a closer look

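Of the 33 tested cell cycle genes, Mcm6 had 1 array far from the others: its log2 ratio of 1.39 on replicate 1 lay 0.916 of the whole range away from the nearest of 0.25, 0.18 and 0.15 on replicates 2 to 4, past Dixon's critical value for 4 samples. Chance marks about 1 in 20 groups in this way, so 1 of 33 is no more than that.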

How the results depend on the processing

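The count of genes past an adjusted p of 0.05, 0 in the fit reported, was 29 with no background correction, 8 with processed signals, 207 with median centring, 10 with no dye term, 382 with trend and robust, 2753 with the separate-channel fit, 266 with no filter and 36 with all tested probes. Of the 47 cell cycle genes, 1 (E2f1) passed in the separate-channel fit and 0 in the other settings. At an unadjusted p under 0.05 there were 3 in the fit reported, 5 with no background correction, 5 with processed signals, 7 with median centring, 7 with the separate-channel fit and 6 with no filter, and 5 to 6 with 1 replicate left out. Of all genes in those fits 23.1%, 21.9%, 23.2%, 32.9%, 15.9% and 12.7% to 18.1% reached it, against 22.7% in the fit reported. The causes were not tested.

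Over all settings the replication median lay between -0.006 and 0.13 and the mitotic median between -0.04 and 0.13, negative for both with normexp fitted on all spots. Of 178 values of 12 named genes under an alternative, 168 kept sign and side of the threshold, 5 gained significance and 5 changed sign. Ppp1r8 passed 0.05 with median centring (adjusted p 0.0461), trend and robust (0.0282), the separate-channel fit (0.000895) and no filter (0.038). Those that changed sign were small: Pcna was -0.016 to 0.156 with 1 replicate left out, Mki67 -0.28 to 0.12 and Ccna2 -0.048 to 0.089, and Ccna2 was -0.022 with normexp fitted on all spots. Ccnd1 was 0.54 to 1.32, Mcm6 0.21 to 0.77 and Rrm2 0.06 to 0.56 with 1 replicate left out. The slide as a block was not run, because all 4 arrays lie on 1 slide and were scanned once. With 2 residual degrees of freedom the fit finds only large and even differences, and genes under background, 7 of 25 mitotic and 2 of 22 replication genes, have no measured difference.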

Other observations

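Spc25, of the NDC80 complex at kinetochores, belongs to none of the 47 genes and had nearly the array pattern of Ccnd1. Its ratios were 2.07, 0.98, 1.02 and -0.46, against 2.40, 1.18, 0.84 and -0.71 for Ccnd1. Its levels were 11.09, 10.11, 10.22 and 8.93 in the knockout mice and 9.01, 9.12, 9.20 and 9.39 in the control mice, so the control mice lay close together and the knockout mice did not. The fit gave 0.91 ± 0.32 (SE; limma adjusted p 0.206). Spc24, which pairs with Spc25 in that complex, had 0.28 to 0.61 on the 4 arrays. Spc25 was picked after its values were seen.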
